A study of Mus musculus with 12 samples.

Results

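The Ifitm genes encode interferon-induced transmembrane proteins, small proteins of the cell surface and of endosomes. The best known members, Ifitm1, Ifitm2 and Ifitm3, hinder the fusion of enveloped viruses with the membranes of the cell, Ifitm1 mostly at the surface and Ifitm3 in endosomes. Interferons raise their transcription through JAK kinases, and stem and progenitor cells can express them without interferon. Ifitm10 is a more distant relative whose function is less well known. The 4 genes Ifitm1, Ifitm2, Ifitm3 and Ifitm10 were picked by name out of the 33696 genes in the files. They were picked because of their CPM, the standard scaling of the UMIs of a gene by all UMIs of the library or cell class, and their share of cells with a UMI in libraries labelled KO and WT, also among thymic precursors with at least 2 UMIs of Ptcra. The differences between these labels are therefore given as a description, with the standard error (SE) of the fit and no test.

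Transcripts of single cells were counted by 10x Genomics 3′ chemistry in sorted γδ T cells of the spleen, sorted γδ T cells of the thymus, and thymic cells of stages DN1 to DN3 sorted together, the precursors that lack CD4 and CD8. All mice were adult C57BL6/J animals, either wild type (WT) or with a germline deletion of Gfi1 (KO), so every cell type of the KO animal lacks the gene and not only T cells. B cells, myeloid cells and NK cells had been depleted from both spleen and thymus with magnetic beads before the sort, and a part of the CD8+ cells from thymus. Each compartment had 2 libraries labelled WT and 2 labelled KO, and the WT and KO cells of a pool carried different hashtags and shared 1 droplet run. The labels do not say how many animals gave each library, so the errors and p values measure the spread between these libraries only.

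The 12 libraries kept 6795 to 11679 cells and 42091895 to 71663962 UMIs each, with a median of 4947 to 6853 UMIs per cell. Gfi1, the targeted gene, was not lower under the KO label: it stood at 11.8 and 18.0 CPM under the WT label and 18.1 and 18.1 CPM under the KO label in spleen. It stood at 16.5 and 17.6 against 28.9 and 19.2 CPM in thymic γδ T cells, and at 44.7 and 40.6 against 70.6 and 56.6 CPM in DN1-DN3 cells. Counts from the 3′ end of a transcript do not show whether the deleted part is present, so the genotype stands as labelled throughout. The sorts carried their defining markers: Cd3e, Trdc and Tcrg-C1 summed to 2125 to 3892 CPM in the γδ T libraries, and Ptcra, Rag1, Il2ra and Kit to 664 to 894 CPM in the DN1-DN3 libraries. The first list was not confined to its sort. It summed to 1042 to 1070 CPM in the DN1-DN3 libraries labelled WT and to 954 to 1072 CPM in those labelled KO. Marker lists of other cell types are given below beside the label differences.

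Ifitm1, Ifitm2 and Ifitm3 lie in 1 cluster on mouse chromosome 7, in the RefSeq order Pgghg, Ifitm5, Ifitm2, Ifitm1, Gm7514, Gm33504, Ifitm3, Ifitm6. Ifitm10 lies on the same chromosome beyond a further 79 gene starts. RefSeq promoters of 300 bases, in GRCm38.p6 coordinates, were searched on both strands for the core of the interferon-stimulated response element, which is GAAA, any 2 bases and GAAA again. The files themselves were aligned to GRCm39, so these coordinates serve for the sequence alone. The letters are found in 3.44% of the 32851 promoters of the table. Ifitm2 holds 1 match, 46 bases before its start. Ifitm3 holds 2 matches, which begin at positions 3 and 20 counted with the start as 1, within the annotated exon. The first match of Ifitm3 has the same 10 letters as that of Ifitm2. These 2 sites are shown because they are what the promoters of these interferon-responsive members share, with the match in capitals:
Ifitm2, chr7:140955988-140956017, minus strand: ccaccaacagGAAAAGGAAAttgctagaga
Ifitm3, chr7:141010723-141010752, minus strand: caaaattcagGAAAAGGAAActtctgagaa
Neither the promoter of Ifitm1 nor those of the 3 annotated starts of Ifitm10 held these letters. Of the 44 genes of the interferon pathway list described below, 36 had a promoter in the table and 16 of these held a match. The core AAATCAC bound by GFI1 is found in 3.20% of the promoters and has no match in those of the 4 members. A match is a string of letters and not a shown binding site.

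The stretches of both promoters from 150 to 31 bases before each start hold no annotated exon, and that of Ifitm2 includes its match. They are printed with the longest run they share, of 11 bases, in capitals:
Ifitm2, chr7:140955992-140956111, minus strand: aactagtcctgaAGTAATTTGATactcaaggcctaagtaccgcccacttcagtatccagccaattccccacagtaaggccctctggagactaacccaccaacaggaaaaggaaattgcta
Ifitm3, chr7:141010775-141010894, minus strand: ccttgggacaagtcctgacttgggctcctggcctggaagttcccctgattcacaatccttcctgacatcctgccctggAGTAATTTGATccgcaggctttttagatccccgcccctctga

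The transcripts of Ifitm1, Ifitm2 and Ifitm3 are alike in parts, and a read that lies within such a part may not tell these genes apart. The longest runs shared in the GENCODE transcripts were 69 bases between Ifitm2 and Ifitm3, 64 between Ifitm1 and Ifitm3 and 40 between Ifitm1 and Ifitm2. No window of 91 bases was shared. Ifitm10 shared at most 14 bases with any of them, so its counts stand apart from those of the others.

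Under the WT label the members differed in the compartment where they were highest, while under the KO label all 4 were highest in DN1-DN3 cells. Ifitm10 reached 31.5 and 33.4 CPM in spleen under the WT label and at most 13.5 CPM in any thymic library. Ifitm2 was 6.42 to 15.1 CPM in thymic γδ T cells and at most 8.77 CPM in spleen. Under each label DN1-DN3 cells had the highest levels of Ifitm1, Ifitm2 and Ifitm3, and Ifitm2 reached 90.9 to 174 CPM there. The levels are compared within each gene between compartments, since counts of 3′ ends carry no length and genes may be captured unequally. A CPM over all cells of a library does not by itself tell fewer cells of a type from less RNA per cell, so shares of positive cells and values within classes of cells are given beside it.

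**Figure D1:**
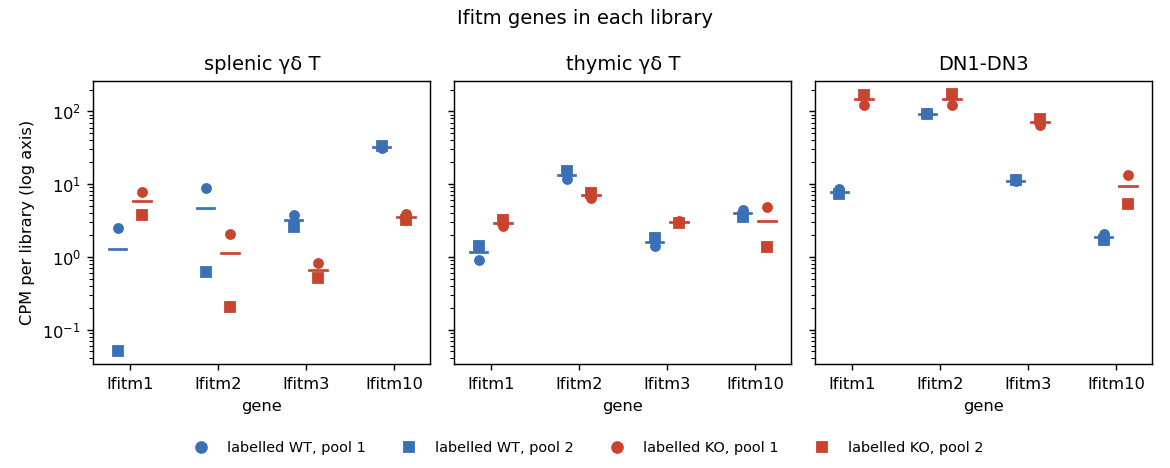
CPM of the 4 Ifitm genes in the 12 libraries on a log axis, with 1 point for each library, colours for the label, shapes for the pool and bars for the mean of 2 libraries. Ifitm1 and Ifitm3 of DN1-DN3 cells lie far higher under the KO label, and splenic Ifitm10 lies far lower.

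Ifitm1 showed the widest gap between labels in DN1-DN3 cells. It stood at 8.49 and 7.30 CPM in the libraries labelled WT and at 124 and 168 CPM in those labelled KO. Both KO-labelled libraries lay above both WT-labelled ones, by a log2 difference of 4.22 (SE 0.73), an 18.5-fold ratio of the means. Both the share of positive cells and the count in each of them were higher. Ifitm1 was found in 4.09% and 4.27% of the cells labelled WT and in 13.1% and 20.3% of those labelled KO, and a positive cell held on average 1.78 and 1.43 against 6.28 and 6.17 UMIs. As a background, 0.0269% to 0.333% of splenic γδ T cells had a UMI of Ifitm1, at a median of 4947 to 5458 UMIs per cell against 5591 to 6231 in DN1-DN3 cells. With each cell thinned to 2000 UMIs, which left out 6505 shallower cells over all libraries, the DN1-DN3 shares were 1.83% and 1.58% under the WT label and 8.22% and 11.7% under the KO label.

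Ifitm3 followed Ifitm1 in DN1-DN3 cells, at a smaller size. Its CPM was 10.9 and 11.3 under the WT label and 65.3 and 78.8 under the KO label, a log2 difference of 2.70 (SE 0.22). The labels did not overlap, and the libraries of each label lay close together. A UMI of Ifitm3 was found in 6.59% and 6.43% of the cells labelled WT and in 18.4% and 27.4% of those labelled KO, or after thinning in 2.20% and 2.59% against 8.09% and 11.6%. Ifitm2 was common under both labels and differed less, at 95.2 and 90.9 CPM under the WT label and 121 and 174 CPM under the KO label. Its log2 difference was 0.68. The SE of 0.82 was larger, but it takes in the spread of Ifitm2 in the other compartments. The log2 difference was 0.29 with KO replicate 2 left out and 0.95 with KO replicate 1 left out. The share of cells with Ifitm2 overlapped between the labels, at 38.2% and 39.2% under the WT label and 29.0% and 43.1% under the KO label. The exact 95% Clopper-Pearson intervals, which cover counting error only, were 28.0% to 30.1% for the lowest of these shares and 42.0% to 44.3% for the highest.

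Ifitm10 was rare in DN1-DN3 cells and uneven between the KO-labelled libraries. It stood at 2.05 and 1.72 CPM under the WT label and at 13.5 and 5.35 CPM under the KO label, a log2 difference of 2.30 (SE 0.50). The share of cells with a UMI was 1.58% and 1.34% against 6.87% and 3.24%. Markers of other cells moved with these values. Trac, Cd4, Cd8a and Cd8b1 summed to 27.3 to 31.3 CPM in the DN1-DN3 libraries labelled WT and to 72.0 to 164 CPM in those labelled KO. The rise was that of Trac, from 18.8 and 20.7 to 154 and 65.6 CPM, while Cd4, Cd8a and Cd8b1 overlapped between the labels at 9.005 CPM or less each. The NK cell genes Ncr1, Klrb1c, Klra8 and Eomes summed to 5.26 to 6.91 against 13.6 to 20.6 CPM, most of it Klrb1c. NK cells had been depleted from the thymus before this sort. Without the cells that held 2 or more UMIs of the first list, a choice made after seeing the data, Ifitm10 was 1.45 and 1.29 CPM under the WT label and 5.38 and 2.39 CPM under the KO label. Without the cells that held 2 or more UMIs of the NK cell genes it was 1.44 and 1.44 against 12.1 and 4.38 CPM. Ifitm1 in the cells left after the first of these removals was 9.07 and 7.61 against 158 and 183 CPM. Cells with fewer UMIs of these markers remained, and their part was not tested. The 7 myeloid markers, among them Lyz2 and S100a8, summed to 7.88 to 9.37 CPM under the WT label and 4.91 to 7.30 CPM under the KO label, and the 6 B cell markers to 22.5 to 24.0 and 24.6 to 38.8 CPM. Most of the latter was Cd79b, which overlapped between the labels at 19.7 and 21.9 against 19.0 and 25.2 CPM, while Cd79a stood at 1.08 and 0.674 against 2.36 and 5.17 CPM. Without cells that carried B cell or myeloid markers, Ifitm1 was 7.28 and 6.61 against 122 and 162 CPM and Ifitm3 was 10.6 and 10.7 against 62.8 and 75.0 CPM.

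The cells of the β-selection path were looked at on their own. Ptcra encodes the pre-T cell receptor α chain, and DN1-DN3 cells with at least 2 UMIs of it numbered 1607 and 2026 under the WT label and 1048 and 2268 under the KO label. Among them Ifitm1 was 4.19 and 4.11 CPM under the WT label and 74.5 and 119 CPM under the KO label, a 23.3-fold ratio of the means. Ifitm3 was 10.3 and 8.59 against 81.7 and 75.7 CPM, an 8.32-fold ratio, and Ifitm2 88.8 and 82.1 against 141 and 171 CPM, a 1.82-fold ratio. Ifitm10 lay at 1.77 and 1.35 against 1.87 and 1.55 CPM there, and its labels overlapped. In cells without a Ptcra UMI, Ifitm10 was 2.61 and 2.08 against 19.6 and 9.64 CPM. The values of this class were among those the members were chosen for, so they are a description. At the edge of the class, cells with exactly 2 UMIs of Ptcra had 3.55 and 6.08 against 85.8 and 148 CPM of Ifitm1, and cells with exactly 1 had 3.94 and 5.03 against 144 and 163 CPM. Cells with at least 2 UMIs were also deeper, with a median of 6594 to 7410 UMIs against 4827 to 5433 in cells without Ptcra.

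**Figure D2:**
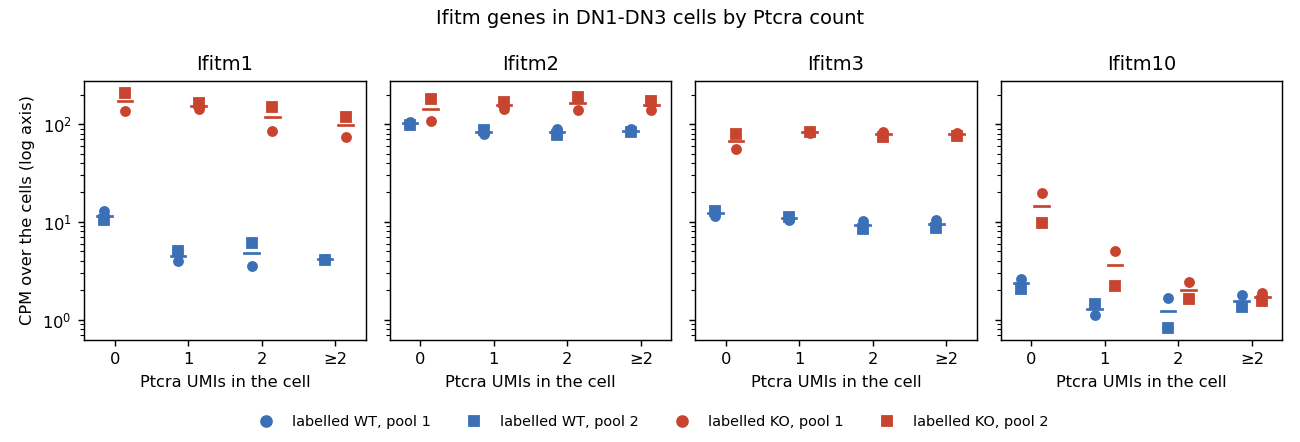
CPM of each Ifitm gene over the DN1-DN3 cells with 0, 1, 2 or at least 2 UMIs of Ptcra, on a log axis, with 1 point for each library and bars for the mean of 2 libraries. Ifitm1 and Ifitm3 stay apart by label in every class, and Ifitm10 overlaps among cells with at least 2 UMIs.

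Ifitm1, Ifitm2 and Ifitm3 tended to be found in the same KO-labelled cells. Among thinned DN1-DN3 cells labelled KO, Ifitm2 was detected in 43.2% and 48.6% of the cells with Ifitm1 and in 12.6% and 18.5% of those without. Ifitm3 was detected in 30.98% and 33.0% of the cells with Ifitm1 and in 6.04% and 8.75% of those without. Over the 523 and 815 such cells with Ifitm1, both libraries labelled KO thus showed the same order. With the label WT, Ifitm2 was detected in 14.0% and 24.8% of the 121 and 109 cells with Ifitm1 and in 15.3% and 15.4% of those without, and only pool 2 showed a higher share. Ifitm3 was detected in 8.26% and 7.34% against 2.09% and 2.52% of the cells labelled WT. All 3 genes together were found in 0.0302% and 0.0290% of the thinned cells labelled WT and in 1.38% and 1.99% of those labelled KO. These shares describe cells of 1 library and carry no test.

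In splenic γδ T cells the order of the labels was the opposite for Ifitm10. It stood at 31.5 and 33.4 CPM under the WT label and at 3.82 and 3.18 CPM under the KO label, a log2 difference of −3.12 (SE 0.50), and the mean under the WT label was 9.26 times that under the KO label. A UMI was found in 13.2% and 14.3% of the cells labelled WT and in 2.05% and 1.71% of those labelled KO, or after thinning in 5.15% and 5.79% against 0.715% and 0.686%. The KO-labelled splenic share was close to the 1.34% and 1.58% of WT-labelled DN1-DN3 cells, which had 5975 and 6231 UMIs per cell against 5402 and 5458. Markers of NK cells, which share many genes with γδ T cells that make interferon γ, moved with it and summed to 95.8 to 114 CPM under the WT label and 9.78 to 10.7 CPM under the KO label. Without the cells that held 2 or more UMIs of these markers, again chosen after seeing the data, Ifitm10 was 28.7 and 30.9 against 3.52 and 3.04 CPM. Cells of this kind with fewer UMIs of the markers remained, and their part was not tested. Trac, Cd4, Cd8a and Cd8b1 also moved, from 199 to 251 CPM under the WT label to 60.0 to 65.2 CPM under the KO label, and without the cells that held 2 or more of their UMIs Ifitm10 was 33.8 and 35.2 against 3.64 and 2.94 CPM. The 6 B cell markers summed to 26.8 to 30.8 CPM under the WT label and 52.7 to 52.9 CPM under the KO label, most of it Cd79b. The 4 markers of DN1-DN3 cells went from 47.0 to 51.1 CPM to 160 to 171 CPM, most of the latter Il2ra, with Rag1 at 0 in all 4 libraries. The list did not rise as a whole. Kit stood at 25.5 and 25.3 CPM under the WT label and at 1.28 CPM in KO replicate 1. Ptcra stood at 0.404 and 0.336 CPM against 0.0854 CPM in the same libraries. The 5 stromal markers, mostly Pecam1, summed to 210 to 219 against 154 to 156 CPM.

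The other splenic members rested on few cells. Ifitm3 was 3.801 and 2.60 CPM under the WT label and 0.833 and 0.504 CPM under the KO label, a log2 difference of −2.19 (SE 0.28) without overlap. Ifitm1 went the other way, with 2.52 and 0.0504 CPM against 7.86 and 3.77 CPM, a log2 difference of 2.41 (SE 0.86). Between 3 and 26 cells of a library held it, and 1 cell held 128 of the 262 UMIs of KO replicate 2. Ifitm2 overlapped between the labels, at 8.77 and 0.622 CPM against 2.03 and 0.201 CPM, a log2 difference of −2.06 (SE 1.16). Within pools 1 and 2, which pair WT and KO, the KO-labelled level of Ifitm2 was 0.231 and 0.324 times the WT-labelled one. The fitted values of Ifitm1 and Ifitm2 hung on single libraries, and leaving out 1 library breaks a pair. Without WT replicate 1 the log2 difference of Ifitm2 was 0.73, and that of Ifitm1 was 6.81. Leaving out WT replicate 2 gave 1.29 for Ifitm1, and leaving out KO replicate 1 gave 1.77. For Ifitm2 it was −3.02 with WT replicate 2 left out, −4.40 with KO replicate 1 left out and −1.02 with KO replicate 2 left out.

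Thymic γδ T cells differed less. Ifitm1 was 0.899 and 1.40 CPM under the WT label and 2.67 and 3.22 CPM under the KO label, a log2 difference of 1.47 (SE 0.87). In WT replicate 1 a single cell held 38 of the 53 UMIs of Ifitm1, and without cells that carried B cell or myeloid markers that library had 0.228 CPM. Ifitm3 was 1.41 and 1.81 against 3.09 and 2.91 CPM, a log2 difference of 1.01 (SE 0.25). Ifitm2 was lower under the KO label, at 6.42 and 7.58 CPM against 11.7 and 15.1 CPM, a log2 difference of −0.81 (SE 0.89). Ifitm1 was thus higher under the KO label in all 3 compartments, Ifitm3 in both thymic ones, and Ifitm2 in DN1-DN3 cells alone. There the SE of Ifitm2, which is shared over all 12 libraries, exceeded the difference. Ifitm10 overlapped, at 4.36 and 3.54 CPM under the WT label and 4.91 and 1.37 CPM under the KO label. Its log2 difference of −0.23 (SE 0.49) became 0.40 without KO replicate 2 and −1.36 without KO replicate 1. Marker lists moved with the label here too, and their part was not tested. The 4 markers of DN1-DN3 cells summed to 52.0 to 68.6 CPM under the WT label and 122 to 152 CPM under the KO label, a rise of Il2ra alone, since Kit, Ptcra and Rag1 were lower. The B cell markers, again mostly Cd79b, summed to 18.7 to 19.0 against 26.9 CPM. Lower under the KO label were the stromal markers, at 250 to 265 against 149 to 171 CPM, the αβ T cell markers, at 65.2 to 70.0 against 54.4 to 54.9 CPM, and the myeloid markers, at 1.68 to 2.25 against 0.749 to 1.11 CPM. Over the members, 4 of 4 did not overlap between labels in DN1-DN3 cells, 3 of 4 in thymic γδ T cells and 3 of 4 in spleen. The same held for 58.8%, 80.8% and 77.8% of the 14911 genes tested, and since the members were chosen on these values nothing is read from these counts.

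The cells of each library were next split by genes that mark known stages and subsets. Cells with at least 2 UMIs of the marker were compared with cells of the same library that had none, cells with 1 UMI were left out, and the sums were tested in edgeR with the library as a block over the 4 libraries of a compartment. The members were not chosen on these contrasts. The quasi-likelihood test with Benjamini-Hochberg adjustment over all genes tested gives each adjusted p below. A split at 2 UMIs picks deeper cells, so calls that changed in cells thinned to 2000 UMIs are named. Some members had too few UMIs left after thinning to be tested, which is said beside their calls.

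Cd24a marks immature γδ T cells of the thymus and Mki67 dividing cells, and among thymic γδ T cells both marked those rich in Ifitm1 and Ifitm2. Cd24a-positive thymic γδ T cells had 26.7 and 36.1 CPM of Ifitm2 against 5.58 and 5.84 CPM in Cd24a-negative cells under the WT label, and 47.0 and 100 against 2.75 and 2.73 CPM under the KO label. Each library showed the same order, with a log2 difference of 3.52 (SE 0.54, adjusted p = 0.00851 by edgeR). Ifitm1 was 0.645 and 2.39 against 0.183 and 0.535 CPM under the WT label and 23.1 and 37.3 against 1.02 and 1.13 CPM under the KO label, a log2 difference of 3.66 (SE 0.66, adjusted p = 0.0127 by edgeR), and its adjusted p was 0.0583 without KO replicate 1. Ifitm10 was lower in Cd24a-positive cells by a log2 difference of −1.39 (SE 0.33, adjusted p = 0.0267 by edgeR), with an adjusted p of 0.130 without WT replicate 1 and 0.128 without WT replicate 2. This split called 36.4% of all genes. None of these 3 calls was made in thinned cells, where the log2 differences of Ifitm2 and Ifitm10 were 1.98 (adjusted p = 0.310) and −0.28 (adjusted p = 0.966) and Ifitm1 had too few UMIs to be tested. Cd24a-positive cells numbered 599 and 801 under the WT label and 160 and 115 under the KO label. Ifitm2 was thus lower under the KO label over all thymic γδ T cells while it was higher within the rarer Cd24a-positive ones.

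Dividing thymic γδ T cells held more Ifitm1 and Ifitm2 and less Ifitm10. Ifitm2 was 24.0 and 28.2 CPM in Mki67-positive and 4.65 and 5.30 CPM in Mki67-negative cells under the WT label, and 45.5 and 69.7 against 2.79 and 2.62 CPM under the KO label. The log2 difference was 3.34 (SE 0.46, adjusted p = 0.00229 by edgeR), and that of Ifitm1 3.69 (SE 0.58, adjusted p = 0.00363 by edgeR). Ifitm10 was lower in dividing cells, at 1.11 and 1.09 against 6.13 and 5.46 CPM under the WT label and 1.93 and 1.29 against 5.38 and 1.44 CPM under the KO label, a log2 difference of −1.93 (SE 0.36, adjusted p = 0.0066 by edgeR). A call was made for 50.6% of all genes. The calls of Ifitm1, Ifitm2 and Ifitm10 held with each library left out in turn, and Ifitm3 did not pass (log2 difference 1.40, SE 0.67). In thinned cells Ifitm2 and Ifitm10 passed, and Ifitm1 could not be tested.

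In DN1-DN3 cells dividing cells held less Ifitm10. Ifitm10 was 0.346 and 0.321 CPM in dividing cells and 3.89 and 3.16 CPM in the others under the WT label, and 1.31 and 0.751 against 18.8 and 8.28 CPM under the KO label. The log2 difference was −3.39 (SE 0.16, adjusted p = 9.31e-06 by edgeR), where 66.2% of all genes were called. Ifitm1 had −0.42 (SE 0.39), Ifitm2 −0.04 (SE 0.18) and Ifitm3 −0.54 (SE 0.23), and none of these passed, although all of them did without KO replicate 1, at −0.86, −0.21 and −0.77. In thinned cells Ifitm2 and Ifitm3 passed at −0.51 and −0.69. Dividing cells made up 1744 and 1649 of the cells labelled WT and 810 and 1246 of those labelled KO. In spleen, where 3.46% of all genes were called, Ifitm2 was 156 and 21.6 CPM in the 97 and 81 Mki67-positive cells labelled WT against 2.36 and 0.278 CPM in Mki67-negative ones. Under the KO label it was 15.8 and 0 CPM in 236 and 227 Mki67-positive cells against 1.47 and 0.199 CPM. KO replicate 2 thus went the other way, and 1 cell held all 21 UMIs of the Mki67-positive cells of WT replicate 2. The log2 difference of 4.85 (SE 0.76, adjusted p = 0.0176 by edgeR) did not pass with a class of 1 or more UMIs (3.73, adjusted p = 0.346), with genes of low counts kept in (adjusted p = 0.111) or without the library as a block (adjusted p = 0.181), and Ifitm2 could not be tested in thinned cells. Leaving out WT replicate 1, WT replicate 2 or KO replicate 1 gave 4.08, 4.48 or 5.47, and the adjusted p was then 0.236, 0.115 and 0.0902. Without KO replicate 2, Ifitm1 and Ifitm3 passed there too, at 4.38 and 3.02.

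Il2rb, the β chain of the interleukin 2 and 15 receptors, is carried by NK cells, which had been depleted before the sort, and by mature T cells. The paper also annotates a cluster of its DN1-DN3 cells as Il2rb-positive DN1e, a subset of DN1. It reports that this cluster was overrepresented in KO thymus. Which of these kinds the Il2rb-positive cells here belong to was not tested. Il2rb marked the cells of the DN1-DN3 sort that held Ifitm10. Ifitm10 was 45.8 and 41.1 CPM in Il2rb-positive cells and 1.22 and 1.08 CPM in Il2rb-negative cells under the WT label, and 54.8 and 41.9 against 4.62 and 1.73 CPM under the KO label. The log2 difference was 4.64 (SE 0.33, adjusted p = 5.08e-05 by edgeR), and 48.3% of all genes were called in this split. The levels within Il2rb-positive cells overlapped between the labels, and there were 130 and 122 such cells under the WT label and 945 and 532 under the KO label. Ifitm1, Ifitm2 and Ifitm3 did not pass, with log2 differences of −1.60 (SE 0.54), −0.43 (SE 0.15) and −0.01 (SE 0.80). Ifitm1 passed in thinned cells, at −1.54, and without KO replicate 1, at −0.91, and Ifitm2 without KO replicate 2, at −0.66. Among the Il2rb-positive cells, Ifitm3 was 47.1 and 19.1 CPM under the WT label and 27.7 and 62.2 CPM under the KO label, so the labels overlapped there.

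Kit marks the earliest DN cells, and its DN1-DN3 cells had the highest Ifitm1 of any class described here. Ifitm1 was 50.4 and 29.7 CPM in Kit-positive cells against 4.57 and 6.02 CPM in Kit-negative cells under the WT label, and 402 and 275 against 99.4 and 150 CPM under the KO label. All 4 libraries showed this order, yet the log2 difference of 2.03 (SE 0.50) did not pass, at an edgeR adjusted p of 0.141, and passed without KO replicate 2 at 2.52. Ifitm2 was 175 and 135 against 84.9 and 85.4 CPM under the WT label and 278 and 248 against 106 and 165 CPM under the KO label, a log2 difference of 0.89 (SE 0.13, adjusted p = 0.0072 by edgeR). Ifitm3 had 0.94 (SE 0.15, adjusted p = 0.00924 by edgeR; 0.0619 without WT replicate 2) and Ifitm10 −2.20 (SE 0.41, adjusted p = 0.0154 by edgeR; 0.0956 without KO replicate 2). This split called 5.33% of all genes. None of these 3 calls held without the library as a block, nor in thinned cells, where the log2 difference of Ifitm2 was −0.09 and that of Ifitm3 was 0.26. Kit-positive cells numbered 338 and 216 under the WT label and 119 and 132 under the KO label, with a median depth of 10196 to 10880 UMIs against 5479 to 5822 in Kit-negative cells.

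**Figure D3:**
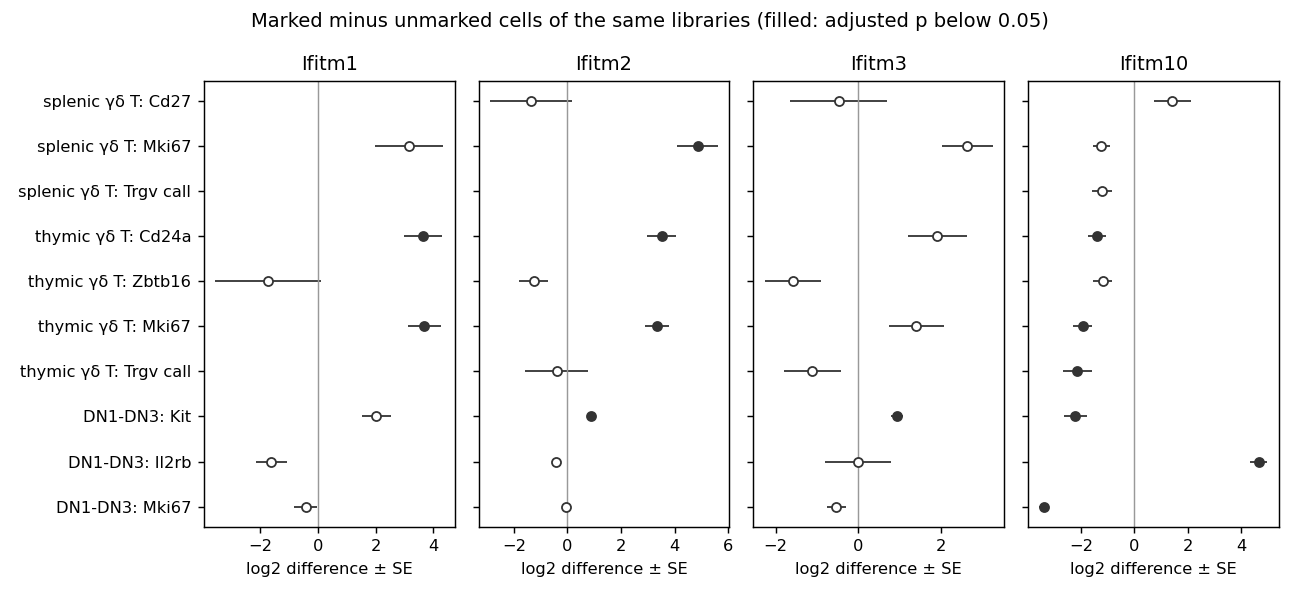
Log2 difference between marked and unmarked cells of the same libraries for each Ifitm gene and each split, with bars for the SE and filled points for an edgeR adjusted p below 0.05. Ifitm10 in DN1-DN3 cells stands at 4.64 for Il2rb and at −3.39 for Mki67.

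Splenic Ifitm10 was followed through further classes. Cd27 marks γδ T cells with the capacity to make interferon γ, and Cd27-positive cells had 35.6 and 34.0 CPM under the WT label and 31.9 and 19.3 CPM under the KO label. Cd27-negative cells had 23.1 and 28.1 CPM under the WT label and 3.13 and 2.75 CPM under the KO label. The gap between the labels was thus smaller in Cd27-positive than in Cd27-negative cells, though the 2 KO-labelled values of the former lay apart. The KO-labelled values of Cd27-positive cells rest on 92 and 123 cells with 24 and 19 UMIs. Over both labels the split gave a log2 difference of 1.42 (SE 0.70) that did not pass, at an edgeR adjusted p of 0.353, and it called 5.65% of all genes. DESeq2 gave 1.76 with an adjusted p of 0.0224, and in thinned cells the log2 difference was −0.19.

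The variable segment of the γ chain sorted splenic Ifitm10 by label as well. Cells were assigned to the Trgv gene that led in UMIs, with the reservation that these segments are alike in sequence. The paper also states that 3′ counts capture them unreliably, so a class may hold cells of other chains. Trgv2-led cells had 31.1 and 32.6 CPM of Ifitm10 under the WT label and 5.002 and 3.71 CPM under the KO label. Trgv4-led cells had 38.0 and 35.1 CPM against 8.63 and 7.50 CPM, and Trgv1-led cells 26.8 and 27.0 CPM against 4.89 and 2.07 CPM. Every one of these classes was lower under the KO label in both pools. Cells without a leading Trgv gene had 34.5 and 37.8 CPM against 4.07 and 3.16 CPM. They numbered 3454 and 4507 under the WT label and 2632 and 3687 under the KO label. How far cells assigned to the wrong class shaped these values was not tested. Trgv6-led cells, the class of γδ T cells linked to interleukin 17, had 4.26 and 13.5 CPM under the WT label and 2.97 and 2.91 CPM under the KO label. They numbered 188 and 229 under the WT label and 3422 and 4613 under the KO label. The test of Trgv6-led cells against Trgv1-led and Trgv4-led cells gave a log2 difference of −1.20 (SE 0.37, adjusted p = 0.370 by edgeR) in spleen, where 0.0802% of all genes were called.

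**Figure D4:**
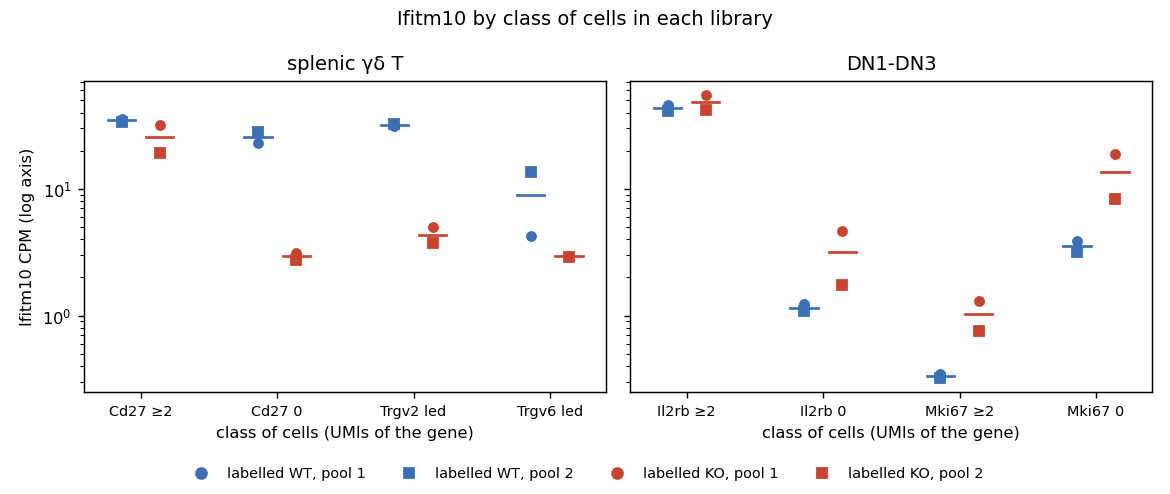
CPM of Ifitm10 over classes of splenic γδ T cells and of DN1-DN3 cells on a log axis, with 1 point for each library and bars for the mean of 2 libraries. Splenic cells labelled KO lie below those labelled WT in each class, least so among Cd27-positive cells, and the labels overlap among Il2rb-positive DN1-DN3 cells.

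In thymic γδ T cells the same test of Trgv6-led cells gave −2.13 for Ifitm10 (SE 0.54, adjusted p = 0.0362 by edgeR), with 11.9% of all genes called. The 41 and 57 Trgv6-led cells labelled WT held 0 UMIs of Ifitm10 and those labelled KO held 15 and 14, so the size of this difference is uncertain. The adjusted p was 0.469 without KO replicate 1, at −1.68, and 0.0908 without KO replicate 2, at −2.76. Without the library as a block it was 0.154, at −1.97, and in thinned cells Ifitm10 could not be tested. Ifitm2 did not pass (log2 difference −0.40, SE 1.18) but passed without WT replicate 2, at −1.94. Zbtb16, which encodes PLZF, the factor of innate-like T cells, gave no call for any of the 4 members in thymic γδ T cells, at adjusted p values of 0.100 to 0.582 in edgeR, where 10.7% of all genes were called. In thinned cells Ifitm2 passed at −2.13 (adjusted p = 0.0111), and by DESeq2 Ifitm10 passed at −1.21 (adjusted p = 0.0389).

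Over the 12 libraries the members fell into 2 patterns. As a description of 12 points that share pools, compartments and labels, Pearson's r of log2(CPM + 1) was 0.87 between Ifitm1 and Ifitm3, 0.86 between Ifitm2 and Ifitm3 and 0.71 between Ifitm1 and Ifitm2. It lay between −0.21 and 0.11 between Ifitm10 and the others. Among genes that averaged 20 CPM or more, those most like Ifitm1 were 2700054A10Rik, Ighg2b and 1110059E24Rik, with r of 0.95, 0.93 and 0.91. Ifitm2 was followed most closely by Ccdc18, Msi2 and Uck2, with r of 0.97, 0.96 and 0.96, and Ifitm3 by Ube2q2, Ighg2b and Zcchc2, with r of 0.94, 0.94 and 0.92. Most like Ifitm10 were Klrd1, which encodes the NK receptor chain CD94, Sidt1 and Slamf7, with r of 0.97, 0.96 and 0.95.

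Since Ifitm1, Ifitm2 and Ifitm3 answer to interferon, a list of 44 genes of the interferon pathway was compared between the labels by the same test. Ifnb1, which encodes interferon β, could not be tested, and 43 genes were. In DN1-DN3 cells 26 of the 43 passed and all 26 were higher under the KO label, with a median log2 difference of 0.69 over the list and of −0.02 over all genes. As a background, 15.2% of all genes were called higher and 7.73% lower. By role, 2 of 4 receptor genes, 6 of 8 signalling genes, 1 of 2 inhibitors and 17 of 28 target genes rose. The count moved with single libraries, to 10 or 15 with WT replicate 1 or 2 left out and to 11 or 31 with KO replicate 1 or 2 left out, and was 15 when the 4 libraries were fitted on their own. How many of all genes passed under these other settings is not given, so the moves are not read as particular to the list. The list was drawn up with earlier results of these data known. Trac and the NK cell genes moved with the label in these libraries, as given above, and their part in the count was not tested.

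Among the named genes of DN1-DN3 cells, Slfn1, which encodes a schlafen protein, was 4.595 and 3.58 CPM under the WT label and 53.7 and 19.6 CPM under the KO label. It rose by a log2 difference of 3.14 (SE 0.52, adjusted p = 0.00229 by edgeR), with the libraries labelled KO far apart. Ifi27l2a, an interferon target, was 14.0 and 19.1 against 94.6 and 79.2 CPM, a log2 difference of 2.38 (SE 0.31, adjusted p = 0.000606 by edgeR). Zbp1, a sensor of Z-form nucleic acids, and Igtp, a GTPase that acts on vacuoles of parasites, rose by 1.37 (SE 0.14) and 0.93 (SE 0.19). The log2 difference of Ifitm1 in these libraries was larger than that of each of these 4, and that of Ifitm2 smaller.

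The same list went the opposite way in spleen. Of the 43 genes 35 passed, 32 of them lower and 3 higher under the KO label, and the list had a median of −1.18 against 0.00 over all genes. Beside this, 28.6% of all genes were called higher and 26.1% lower. The 3 that rose were Ifngr2, a chain of the interferon γ receptor, Socs1, an inhibitor of JAK kinases, and Igtp. Slfn1 fell from 67.5 and 92.3 CPM under the WT label to 3.65 and 4.63 CPM under the KO label, a log2 difference of −4.17 (SE 0.54, adjusted p = 0.000121 by edgeR). Ifi27l2a fell from 159 and 226 CPM to 13.9 and 15.5 CPM, a log2 difference of −3.61 (SE 0.32, adjusted p = 1.08e-05 by edgeR). Rtp4, a chaperone of receptors, Slfn5 and Trim30a, a TRIM protein, fell by 3.22, 2.97 and 1.93 on the log2 scale. Ifitm3 and Ifitm10 lay lower under the KO label in these libraries too, while Ifitm1 lay higher. The markers of NK cells, αβ T cells, B cells, DN1-DN3 cells and stromal cells moved with the label in these libraries, as given above. Their part in the count was not tested.

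In thymic γδ T cells 24 of the 43 genes passed, 18 of them higher and 6 lower under the KO label, and the list had a median of 0.46 against 0.00 over all genes. The background was 26.1% of all genes called higher and 23.7% lower. Marker lists of other cell types moved with the label in these libraries, as given above, and their part in the count was not tested. Socs1 rose from 60.4 and 61.7 CPM to 162 and 203 CPM, a log2 difference of 1.71 (SE 0.13, adjusted p = 8.07e-06 by edgeR). Igtp, Gbp2, a guanylate-binding protein that attacks microbes in the cell, and Parp14, an ADP-ribosyl transferase, rose by 1.44 (SE 0.19), 1.04 (SE 0.16) and 0.97 (SE 0.15). Usp18, which removes ISG15 from proteins and dampens the type I receptor, fell from 49.95 and 50.5 CPM to 23.3 and 17.9 CPM, a log2 difference of −1.17 (SE 0.23, adjusted p = 0.0021 by edgeR). Of the receptor genes, Ifngr2 rose while Ifnar1, Ifnar2 and Ifngr1 fell. Of the 43 genes, 19 were called lower in spleen and higher in DN1-DN3 cells, against 3.63% of all genes, and 10 were called lower in spleen and higher in thymic γδ T cells, against 1.8%. In both thymic compartments 14 were called higher, against 9.56% of all genes.

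**Figure D5:**
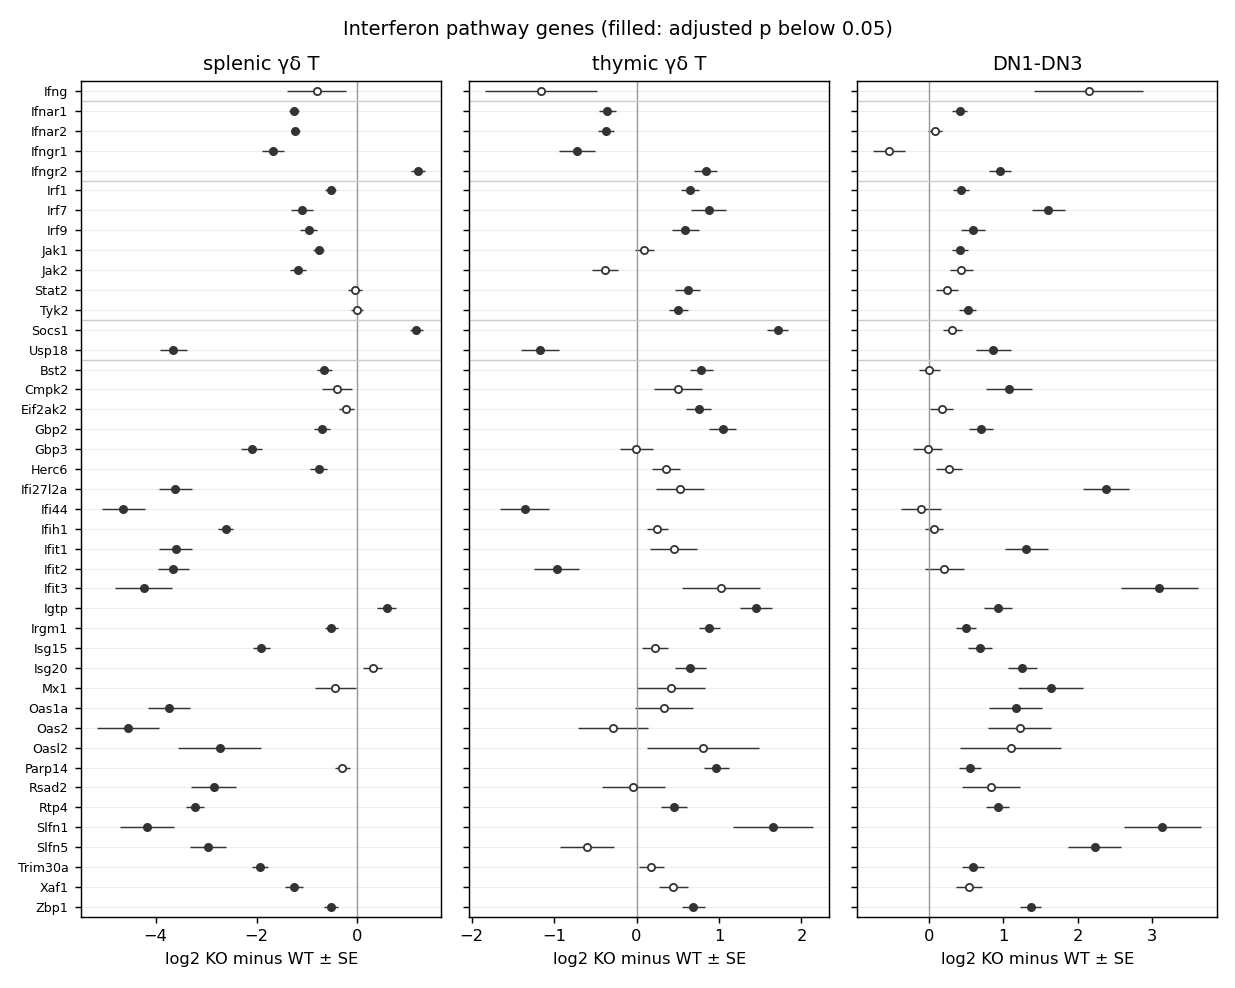
Log2 difference between the labels KO and WT for 42 of the 43 tested genes of the interferon pathway list, ordered by role from ligand to target, with bars for the SE and filled points for an edgeR adjusted p below 0.05. Of the filled points, 31 of 34 lie below 0 in spleen, 17 of 23 above 0 in thymic γδ T cells and all 25 above 0 in DN1-DN3 cells.

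Genes whose products are listed as partners of IFITM proteins were compared last. The list held Zmpste24, a membrane protease, Zdhhc20, which attaches palmitate to IFITM proteins, Nedd4, a ubiquitin ligase that marks Ifitm3 for breakdown, the tetraspanins Cd81 and Cd9, and Vapa, a protein of membrane contact sites. In DN1-DN3 cells Zdhhc20 rose from 102 and 87.2 CPM to 142 and 106 CPM, a log2 difference of 0.38 (SE 0.11, adjusted p = 0.0301 by edgeR). Nedd4 fell from 237 and 219 CPM to 171 and 158 CPM, a log2 difference of −0.47 (SE 0.11, adjusted p = 0.0131 by edgeR). The other 4 did not pass there. In spleen all 6 passed, 3 in each direction, and Cd9 fell from 69.9 and 62.3 CPM to 4.06 and 4.01 CPM, a log2 difference of −3.94 (SE 0.36, adjusted p = 1.18e-05 by edgeR). Cd81 fell by 2.85 (SE 0.47) in spleen and by 1.95 (SE 0.39) in thymic γδ T cells on the log2 scale, where Zmpste24 and Vapa rose and the other 3 did not pass. The share of all genes called was 28.6% higher and 26.1% lower in spleen, 26.1% and 23.7% in thymic γδ T cells and 15.2% and 7.73% in DN1-DN3 cells, so the counts of this list are read as no result about it.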

How the data were processed

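Single-cell 3′ transcript counts of 12 libraries were used, 2 per label and compartment. The deposited counts are whole UMIs per gene and cell, which the authors obtained with Cell Ranger 8.0.1 on GRCm39, per the submitters' processing notes, and split into WT and KO cells by hashtag with hashsolo. From these, 96911 of 97404 barcodes were kept, those with 500 or more UMIs, 200 or more genes and no more than 20% of UMIs from mitochondrial genes. Doublets were not called again. The cell's own hashtag was the higher one in 99.6% to 100% of cells. Libraries of 1 pool shared 0 cell barcodes, and libraries of different pools 5 to 34 (0.0733% to 0.499% of the smaller library).

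UMIs were summed per library, or per library and cell class, as CPM or as counts for edgeR 4.0.16 quasi-likelihood fits with TMM factors, a filter on low counts and Benjamini-Hochberg adjustment at 0.05. The 12 libraries were fitted together for the difference between labels, and the 4 of a compartment with the library as a block for cell classes. Ribosomal, mitochondrial and Gm-named genes were left out by name (9548 genes). The label fit of DN1-DN3 cells and the fit of the Kit split were tried on simulated counts. These counts had the same spread for every gene and no effect of pool or library. They therefore do not show how the fits perform on these libraries. The members and all lists were chosen with earlier results of these data known. The interferon genes named were, in each compartment, the 5 with the largest log2 difference among those called, at a mean of at least 20 CPM and with the same sign in both pools, and 1 such gene and the cell classes of 1 marker are not reported here. The receptor genes, named where few genes went one way, were chosen after their values were seen. Alternatives were a class of 1 or more UMIs, thinning to 2000 UMIs, RLE factors, DESeq2 1.42.0, no filter on low counts, the block and each library left out. Pool numbers mark a shared droplet run, so they pair the WT and KO libraries. Deviations from the group means of same-pool libraries correlated with r of 0.39 in spleen, 0.06 in thymic γδ T cells and 0.28 in DN1-DN3 cells over 14911 genes. Python 3.11.15, R 4.3.3, limma 3.58.1 and matplotlib 3.10.9 were used.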

Additional observations from a re-analysis of the deposited data

Results flagged for a closer look

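Several genes differed between the labels in opposite directions in 2 compartments, with both pools of each compartment moving the same way. None of these differences between compartments was tested, and for the members they rest on the values they were chosen for. The log2 difference between the labels KO and WT of Ifitm2 was −2.06 in spleen and −0.81 in thymic γδ T cells against 0.68 in DN1-DN3 cells. The splenic levels of Ifitm2 overlapped between the labels, and the splenic value was 0.73 without WT replicate 1. Both thymic values were smaller than their SEs of 0.89 and 0.82, which take in the spread of the splenic libraries. The log2 difference of Ifitm3 was −2.19 in spleen against 1.01 in thymic γδ T cells and 2.70 in DN1-DN3 cells, and that of Ifitm10 was −3.12 in spleen against 2.30 in DN1-DN3 cells.

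Of the interferon genes named by the rule for named genes, 5 had one sign in spleen and the other in both thymic compartments. In the order spleen, thymic γδ T cells and DN1-DN3 cells, the log2 differences of Gbp2 were −0.70, 1.04 and 0.70, those of Parp14 −0.30, 0.97 and 0.55, and those of Rtp4 −3.22, 0.46 and 0.92. Those of Slfn1 were −4.17, 1.65 and 3.14 and those of Zbp1 −0.53, 0.69 and 1.37. Spleen and DN1-DN3 cells differed for Ifi27l2a, at −3.61 and 2.38, and for Trim30a, at −1.93 and 0.59. For Slfn5 the values −2.97 in spleen and −0.60 in thymic γδ T cells stood against 2.23 in DN1-DN3 cells, and for Usp18 −3.65 and −1.17 against 0.87.

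Within a compartment, 3 differences between marked and unmarked cells had one sign in both libraries labelled WT and the other in both labelled KO, again untested. The mean CPM difference of Trgv6-led against Trgv1-led and Trgv4-led splenic cells was 0.273 under the KO label and −7.46 under the WT label for Ifitm2, and 0.616 and −4.36 for Ifitm3. The KO-labelled Trgv1-led and Trgv4-led cells, 238 and 337 in number, held 0 UMIs of both genes, and the WT-labelled Trgv6-led cells held 2 and 0 UMIs of Ifitm2 and none of Ifitm3, so these signs rest on counts of 0, and neither gene was tested in this split. For Il2rb in DN1-DN3 cells, that of Ifitm3 was −35.1 under the KO label and 22.3 under the WT label.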

How the results depend on the processing

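With the replicate block for the pool, which pairs WT and KO, 35, 27 and 28 interferon genes passed in spleen, thymic γδ T and DN1-DN3 cells against 35, 24 and 26 without it, and the pairing moved no other such count by over 1.5 times. DN1-DN3 counts were 15 with its 4 libraries fitted alone and 10 to 31 with 1 library left out. The share of all genes called under these settings is not given. Log2 differences between labels without B and myeloid cells were −1.95 for splenic Ifitm3 and 1.81 for thymic Ifitm1. With 1 library left out they were 1.29 to 6.81, −4.40 to 0.73 and −2.58 to −1.80 for splenic Ifitm1, Ifitm2 and Ifitm3, 1.20 to 1.83, −0.98 to −0.63 and −1.36 to 0.40 for thymic Ifitm1, Ifitm2 and Ifitm10, and 0.29 to 0.95, 2.46 to 2.87 and 1.55 to 2.75 for Ifitm2, Ifitm3 and Ifitm10 of DN1-DN3 cells.

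Counts of members called moved as follows, and the cause was not tested. The share of all genes called under these settings is not given, so the moves are read as no result about the members. Spleen: Cd27 from 0 to 1 by DESeq2 (0 to 1 left out), Mki67 from 1 to 2 by DESeq2 and 0 with 1 or more UMIs, thinned, unfiltered or with no replicate block (unblocked; 0 to 3 left out). Thymic γδ: Cd24a from 3 to 0 thinned, Zbtb16 from 0 to 1 thinned or by DESeq2, Trgv from 1 to 0 thinned or unblocked (0 to 2 left out). DN1-DN3: Kit from 3 to 0 thinned or unblocked, Il2rb from 1 to 3 with 1 or more UMIs and 2 thinned, by RLE, DESeq2 or unfiltered (1 to 2 left out), Mki67 from 1 to 2 with 1 or more UMIs or DESeq2 and 3 thinned (1 to 4 left out).

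Signs turned, in thinned cells, for Cd27 Ifitm3 (0.27) and Ifitm10 (−0.19), Kit Ifitm2 (−0.088) and Il2rb Ifitm2 (0.14) and Ifitm3 (0.24). DESeq2 turned Ifitm3 for Cd27 (0.41) and Il2rb (0.34). Left-out libraries turned Ifitm3 for Cd27 (−1.61 to 1.55) and Il2rb (−0.60 to 0.68), Ifitm2 for thymic Trgv (−1.94 to 0.30, unblocked 0.30) and for DN1-DN3 Mki67 (−0.21 to 0.11, unblocked 0.023), where Ifitm1 turned unblocked (0.055). Of 332 alternatives over classes and members, 265 kept their direction and side of the threshold. Splenic Ifitm1 was found in at most 26 cells of a library.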

Other observations

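The files hold 3 further Ifitm genes, which stayed near the floor of detection in all 12 libraries. Ifitm5, linked to bone formation, reached at most 0.213 CPM, Ifitm6 at most 0.236 CPM and Ifitm7 at most 0.0140 CPM. In thymic γδ T cells, 1 cell labelled WT of pool 1 held 38 of the 53 UMIs of Ifitm1 in its library. In DN1-DN3 cells the highest count of Ifitm1 in 1 cell was 25 and 17 UMIs under the WT label and 64 and 95 UMIs under the KO label.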
